A study of Caenorhabditis elegans with 4 samples.

Results

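The splicing factor genes described here are the protein-coding genes of the Ensembl annotation of WBcel235 (the build also called ce11) whose names begin with rsp-, lsm-, snr-, prp-, uaf- or sfa- and a digit. There are 38 of them among 19973 nuclear protein-coding genes, namely 8 rsp-, 7 snr-, 7 lsm-, 13 prp-, 2 uaf- and 1 sfa- gene. They were chosen by name, not by any measured value, though with earlier results of these data known. The question was where a tagged K09A11.1 protein, named a BED-type domain-containing protein by RefSeq, is recovered near these genes by chromatin immunoprecipitation with sequencing (ChIP-seq). All 4 libraries form 1 group of whole hermaphrodites of Caenorhabditis elegans strain OP372 at the late embryonic stage, age not known, as 2 biological replicates with 2 technical libraries each. The strain carries the allele unc-119(tm4063) III and the integrated transgene wgIs372, which expresses K09A11.1 with a C-terminal GFP-FLAG tag, and chromatin was precipitated through the GFP. Whole animals mix all tissues, the promoter that drives the transgene is not given in the labels, and 1 transgenic line was used. Libraries from untagged animals were not analysed here, so recovery that depends on the antibody or on open chromatin was not tested.

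Spliceosomes remove introns from pre-mRNA in steps carried out by small nuclear ribonucleoproteins (snRNPs). Sm proteins (snr- genes) form the ring around most spliceosomal small nuclear RNAs, and Sm-like proteins (lsm- genes) form a related ring on U6. U2AF (uaf- genes) and the branch point protein SF1 (sfa-1) read the start of each splice acceptor, SR proteins (rsp- genes) recruit the machinery to exons, and Prp proteins build and remodel the catalytic complex. In this worm most pre-mRNAs also receive a spliced leader by trans-splicing, and many genes are transcribed in operons, whose downstream genes lie close behind an upstream gene on the same strand.

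Regions come from 4 lists on ce11: the ranked lists of replicate 1, of replicate 2 and of both together (pooled), each of 30000 regions, and a thresholded list of 689 peaks filtered by irreproducible discovery rate. All 689 were the highest regions of the pooled list, so the thresholded list is its top and not a separate measurement. A gene was given the region of highest signal whose summit lay in its promoter window. The window ran from 1000 bp upstream to 200 bp downstream of any annotated 5′ end of its protein-coding transcripts. Throughout, 5′ ends are those of protein-coding transcripts. Signal values are the authors' own. They ran from 7.02 to 452 in the pooled list, with a lowest value of 30.4 in the thresholded list. Lists of the replicates were not scaled to each other, and the lists hold no counts, so depth is unknown and no error of a single value can be given. The replicate values stand beside each pooled value instead. Each is the highest in the same window, which at snr-1, snr-6, rsp-7, uaf-2, prp-4, lsm-6, lsm-8, lsm-1, rsp-8, prp-6, prp-18, prp-21 and snr-5 can be at another summit in at least 1 replicate.

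Of the 38 genes, 6 had a thresholded promoter peak (15.8%), where 2.49% of all protein-coding genes had one. The 6 were the Sm-like genes lsm-3 and lsm-7, the SR protein genes rsp-1, rsp-2 and rsp-3, and the Sm gene snr-4. They rest on 5 peaks, because rsp-1 and rsp-2 are transcribed away from each other and share theirs. Below that list the signal was widespread and weaker. In the pooled list 32 of the 38 genes had a promoter region (84.2%), where 42.2% of all genes had one. The counts were 28 in replicate 1, 27 in replicate 2 and 35 in at least 1 of the 4 lists, where 41.4%, 42.4% and 63.3% of all genes had one.

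The sequence at 7 of these regions is shown for the GC content and, except at lsm-3, the words described later. Each line is the pooled summit with 50 bp on each side, read from the RefSeq copy of WBcel235 on the strand of the named gene. Capitals mark the word CGCGCA, the TATA-box core TATAAA, the word CTGCGTC, its inner part GCGTC and the acceptor-like TTTCAG, each on either strand. The first 5 lines are the thresholded peaks, at chrIV:13386194-13386294 (plus strand), chrIII:12688128-12688228 (minus), chrIV:10933208-10933308 (plus), chrII:11453139-11453239 (plus) and chrV:11980012-11980112 (minus). The last lines, at chrIV:7791346-7791446 and chrIV:9884376-9884476 (both minus), are weaker regions of the pooled list that hold CTGCGTC.
lsm-3: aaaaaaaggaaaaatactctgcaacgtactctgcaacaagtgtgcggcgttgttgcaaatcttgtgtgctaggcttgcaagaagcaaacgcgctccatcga
rsp-3: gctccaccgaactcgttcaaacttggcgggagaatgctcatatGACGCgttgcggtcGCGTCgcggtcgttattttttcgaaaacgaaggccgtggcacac
lsm-7: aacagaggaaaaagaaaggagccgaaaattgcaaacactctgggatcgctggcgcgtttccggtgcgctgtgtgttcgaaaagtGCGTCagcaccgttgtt
rsp-1: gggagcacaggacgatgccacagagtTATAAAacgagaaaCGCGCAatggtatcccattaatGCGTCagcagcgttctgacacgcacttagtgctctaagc
snr-4: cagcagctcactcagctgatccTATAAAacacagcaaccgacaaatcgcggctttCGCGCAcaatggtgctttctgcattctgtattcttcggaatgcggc
rsp-6: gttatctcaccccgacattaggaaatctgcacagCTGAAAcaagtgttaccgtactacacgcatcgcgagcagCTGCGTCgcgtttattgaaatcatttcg
prp-18: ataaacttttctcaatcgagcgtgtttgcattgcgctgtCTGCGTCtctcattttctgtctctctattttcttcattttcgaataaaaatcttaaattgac

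SR proteins bind exonic enhancers and help recruit U1 and U2AF, and 3 of the 8 rsp- genes had a thresholded peak. At rsp-3, the worm homologue of the human splicing factor SRSF1, the pooled signal was 39.2 (rank 458), with 18.9 in replicate 1 and 19.99 in replicate 2. Its peak covered chromosome III 12688008 to 12688347, with the summit 256 bp upstream of rsp-3. The summit lay 140 bp upstream of spin-4, which is transcribed the other way and has the nearer 5′ end.

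The peak between rsp-1 and rsp-2 covered chromosome II 11453019 to 11453358, with a pooled signal of 32.6 (rank 614), 13.2 in replicate 1 and 15.2 in replicate 2. Its summit, at 11453189, was 234 bp upstream of rsp-2 and 785 bp upstream of the nearest 5′ end of a protein-coding transcript of rsp-1. The annotated rsp-1 gene begins nearer to the summit, at 11453362, but other kinds of transcript gave no 5′ ends here. The peak thus lies in the intergenic sequence between 2 SR protein genes and cannot be given to 1 of them.

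Just under the threshold stood rsp-6, whose human relatives include SRSF3 and SRSF7. Its pooled signal was 28.9 (rank 746), with 15.7 in replicate 1 and 12.9 in replicate 2. The summit lay 167 bp upstream of rsp-6 in a stretch that no other promoter window held. The rsp-7 region had 19.1 in the pooled list, 9.61 in replicate 1 and 12.1 in replicate 2, and its summit was nearer to snu-13 (224 bp), a protein of the U4/U6.U5 snRNP, than to rsp-7 (356 bp). The rest of the family was lower: 12.1 at rsp-5, which shares its region with snr-3, and 11.8 at rsp-8, a relative of the splicing regulator Tra2. The gene rsp-4 had no pooled region, and its replicate 2 value was 3.14. Over the 7 rsp- genes with a pooled region, values therefore spanned from near the list's own median of 9.73 to past the threshold.

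Sm proteins are shared by the snRNPs of both cis- and trans-splicing, and all 7 snr- genes had a pooled promoter region, but 1 passed the threshold. That was snr-4, which encodes Sm D2, with 32.5 in the pooled list (rank 620), 20.8 in replicate 1 and 16.1 in replicate 2. The peak covered chromosome V 11979892 to 11980231, 339 bp upstream of snr-4, and no other protein-coding promoter window held its summit. It is not a peak of snr-4 alone, however. The summit lay inside the noncoding RNA gene C52E4.14 (11979959 to 11980101) and 56 bp from the snRNA gene T11F9.15 (11980118 to 11980261), both on the plus strand, opposite to snr-4.

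Of the next Sm genes, snr-2 and snr-7 were uneven between replicates. The snr-2 region (Sm B), on chromosome I 391 bp upstream, had 24.1 in the pooled list and 17.96 in replicate 2 (rank 303), and replicate 1 listed no region in the window. Its summit was nearer to W08E3.4 (75 bp), which is transcribed the other way. The snr-7 region (Sm G) had 22.95 pooled, 15.6 in replicate 1 and 5.80 in replicate 2, with its summit in the 5′ UTR of the neighbouring gene Y71F9B.6. The snr-6 region (Sm E) had 19.7, 11.14 and 7.29 in the same order, with close ranks in the replicates (4110 and 3543). Values at the remaining genes were 14.7 at snr-1 (Sm D3), 12.1 at snr-3 (Sm D1) and 7.20 at snr-5 (Sm F) in the pooled list. The last of these is close to the lowest value of that list.

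Sm-like genes gave the highest value of all 38 genes, at lsm-3, and 1 peak with unlike replicate ranks, at lsm-7. At lsm-3 the pooled signal was 67.6 (rank 155), with 38.3 in replicate 1 (rank 227) and 28.0 in replicate 2 (rank 117). The peak covered chromosome IV 13386074 to 13386413. Its summit was 959 bp upstream of lsm-3, near the far edge of the window, and lay in the windows of 3 other genes with nearer 5′ ends. They are Y62E10A.23 at 80 bp, mdt-9, a subunit of the Mediator complex, at 136 bp and Y62E10A.20 at 153 bp.

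At lsm-7 the pooled signal was 33.8 (rank 577), with 24.7 in replicate 1 (rank 483) and 5.60 in replicate 2 (rank 7768). Its peak covered chromosome IV 10933088 to 10933427, 244 bp upstream of lsm-7 and 55 bp upstream of dnc-1, a dynactin subunit transcribed the other way. The lsm-7 peak was thus among the 689 highest regions in replicate 1 and far below them in replicate 2. The other lsm- genes had pooled values of 12.7 at lsm-8, 10.8 at lsm-6, 10.1 at lsm-5 and 9.50 at lsm-1, which acts in mRNA decay more than in splicing. The lsm-1 summit lay nearer to the ribosomal protein gene rps-9. None of the 4 lists held a promoter region for lsm-4.

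**Figure D1:**
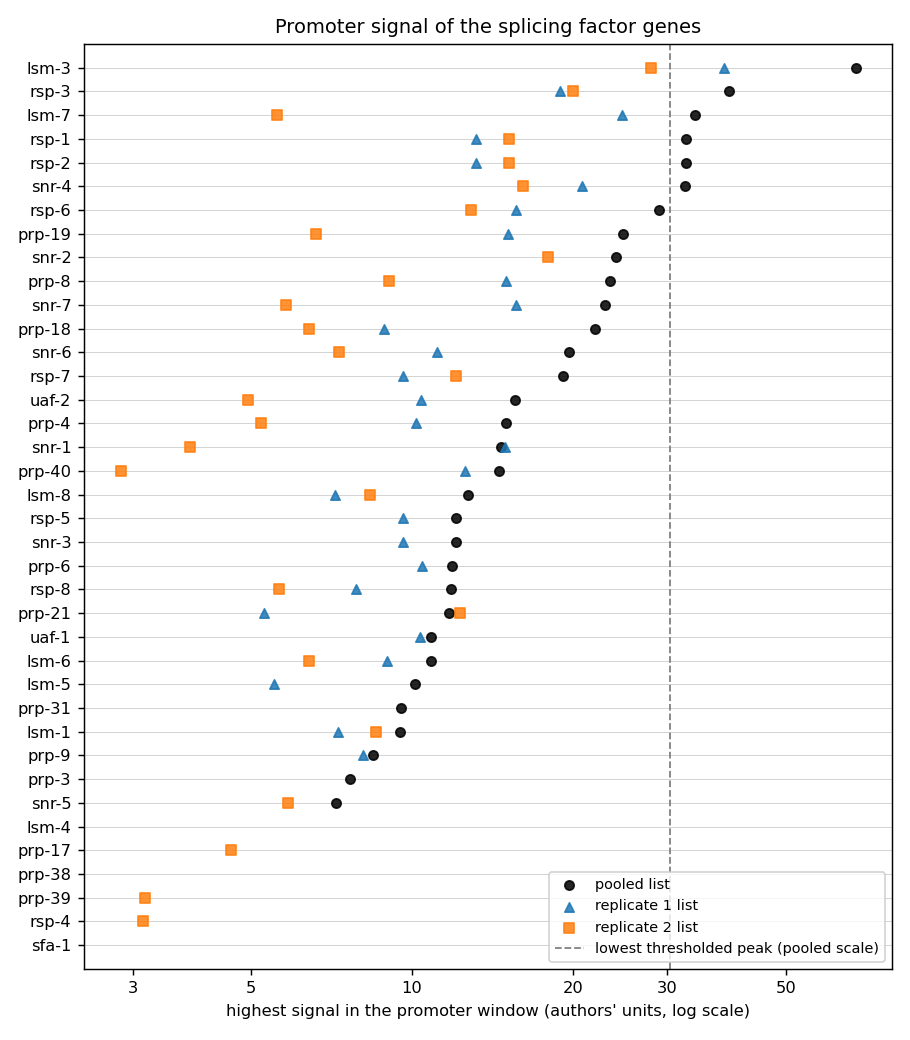
Highest promoter signal of each of the 38 genes (1 row per gene, ordered by pooled signal) in the pooled list (circles), the replicate 1 list (triangles) and the replicate 2 list (squares), in the authors' units on a log axis; a missing symbol means that the list held no region in the window. The 6 genes to the right of the dashed line at 30.4 had a thresholded peak, and lsm-7 and prp-40 show wide gaps between the replicate values.

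Prp genes, the largest family, had no thresholded peak among 13, where 2.49% of all genes had one. With 13 genes that absence is not read as a trait of the family. Of the 13, 10 had a pooled region, where 42.2% of all genes had one. The highest were prp-19, the ubiquitin ligase that gives the Prp19 complex its name, with 24.8 pooled, 15.1 in replicate 1 and 6.62 in replicate 2, and prp-8, the U5 protein at the catalytic centre, with 23.5, 15 and 9.06. The prp-8 summit lay 333 bp upstream of prp-8, and prp-8 had the nearest 5′ end. The prp-19 summit was 631 bp upstream of prp-19 and 44 bp upstream of K10D2.5. A second-step factor, prp-18, had 22.0 pooled, 8.84 in replicate 1 and 6.41 in replicate 2, with the summit 43 bp upstream.

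These 3 are the prp- genes among the 1500 highest pooled regions, where 5.36% of all genes had a promoter summit; over all 38 members the count was 12. Among the 3000 highest it was 14, where 8.95% of all genes had one. Others lay lower. The U4/U6 protein gene prp-4 had 15 pooled, 10.2 and 5.23, and prp-40, a U1-associated protein, had 14.5, 12.5 and 2.85 in the same order. Pooled values at prp-6, prp-21, prp-31, prp-9 and prp-3 ran from 7.66 to 11.9. At prp-21, which encodes a U2 protein of the SF3A complex, replicate 2 gave 12.3 (rank 776) and replicate 1 gave 5.29 (rank 28607).

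None of the 3 genes for proteins that read the 3′ splice site and branch point had a thresholded peak. Over all genes 2.49% had one, so its absence at 3 genes is not read as a trait of the group. The small U2AF subunit gene uaf-2 had 15.6 pooled, 10.4 in replicate 1 and 4.94 in replicate 2, inside an intron of uaf-2. The large subunit gene uaf-1 had 10.9 pooled and 10.4 in replicate 1, also in its own intron, with no region in replicate 2. No list held a region in the window of sfa-1. The genes prp-38, which activates the spliceosome, sfa-1 and lsm-4 were the 3 of 38 with no region in any list. A region in the replicate 2 list alone was found for rsp-4, prp-17 and prp-39.

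Same-strand neighbours change this picture for a few genes. Operon annotation was not used; a member was instead traced back through genes on its strand separated by gaps of at most 500 bp, and 9 members had such a gene upstream. For 4 of the 9 the first gene of the cluster had a thresholded promoter peak, where 5.47% of the 3618 genes so placed had one. The prp-38 gene begins 106 bp behind plrg-1, a Prp19 complex gene. The plrg-1 peak on chromosome V, 10807953 to 10808292, had 93.8 pooled, 61.2 in replicate 1 and 32.3 in replicate 2, which is above the value of every member. Its summit lies 2089 bp from the 5′ end of prp-38. The prp-39 gene begins 90 bp behind hmgs-1, an enzyme of the mevalonate pathway, with a peak of 32.4, 16.6 and 14.2. The lsm-8 gene begins 103 bp behind sqd-1, an RNA-binding protein gene, with 37.2, 29.8 and 4.58. The fourth is lsm-3, behind Y62E10A.23, whose peak is the one described for lsm-3. The sfa-1 gene traces back through cyn-13 to uaf-2, with its region of 15.6.

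Counted with these first genes, 9 of 38 members (23.7%) had a thresholded peak at their own promoter or at the head of their cluster, against 3.44% of all genes. This count was added after the data were seen. Whether the cluster members share a transcript was not tested.

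Summits lay upstream of a 5′ end of the member and mostly in sequence that other genes also face. All 32 pooled summits were upstream of the member's nearest 5′ end, from 39 to 959 bp, with a median of -311 bp. Over all genes with a pooled region 86.1% were upstream, at a median of -307 bp, and the window itself reaches 5 times farther upstream than downstream. Of the 32, 26 lay between protein-coding genes, 3 in introns, 1 in a coding exon, 1 in a 5′ UTR and 1 in a 3′ UTR. The 3 in introns, at uaf-1, uaf-2 and prp-40, lay inside the member itself, upstream of an internal 5′ end. The promoter windows of other genes held the summit for 22 of the 32 members, 20 of these at divergent pairs, and the member had the nearest 5′ end for 17. For these places and neighbours no share over all genes is given, so the counts are not read as a trait of the members. Among the 6 thresholded genes, rsp-2 and snr-4 had the nearest 5′ end of a protein-coding transcript, where 1.75% of all genes were the nearest to a thresholded peak.

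Members differ from other genes in how crowded their promoters are. The windows of 30 of the 38 (all but 21.1%) meet the window of another protein-coding gene, while 63.9% of all genes have a window that meets none. The counts were therefore also taken within each kind of window. Among genes with crowded windows, 5 of 30 members (16.7%) had a thresholded peak, where 4.72% of the 7211 such genes had one, and 26 of 30 had a pooled region, where 47.0% had one. Among genes with separate windows, 1 of 8 members (snr-4) had a thresholded peak, where 1.24% of the 12762 such genes had one. A pooled region was at 6 of the 8, where 39.4% had one. Noncoding genes did not count as neighbours here, and the snr-4 summit lay inside the noncoding gene C52E4.14. How much of a member's peak belongs to the neighbour cannot be told apart from these lists.

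**Figure D2:**
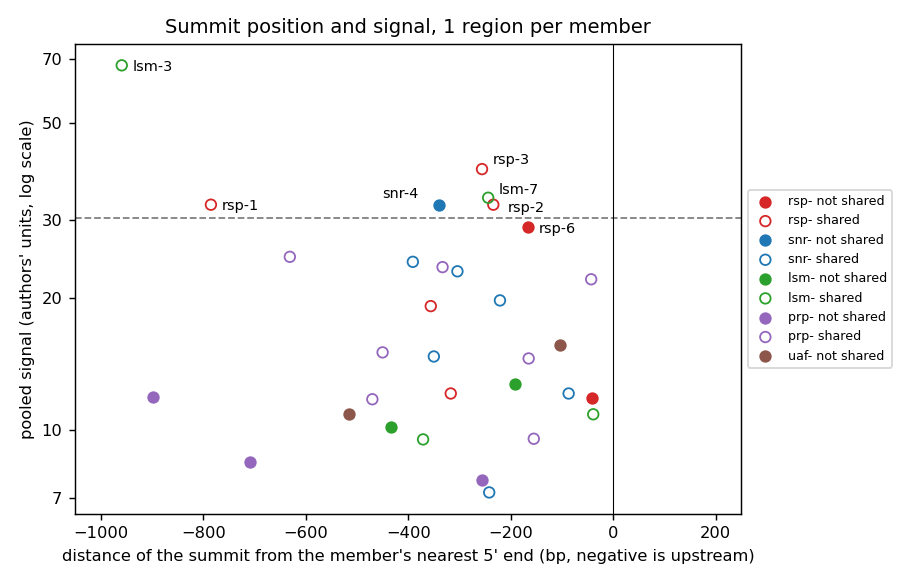
Pooled signal (authors' units, log axis) against the distance of the summit from the member's nearest 5′ end for the 32 members with a pooled region, coloured by family; open circles mark summits that also lie in the promoter window of another protein-coding gene. All points lie left of 0, and 5 of the 6 genes above the dashed line at 30.4 are open circles.

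Recurrence between the biological replicates was partial. In both replicate lists 22 of 38 members (57.9%) had a promoter region, where 23.6% of all genes had one, and for 16 of them the summits of both lists lay within 100 bp of each other (9.86% of all genes). With each replicate list taken to its 689 highest regions, replicate 1 gave 3 members (lsm-3, lsm-7 and snr-4), where 2.33% of all genes had such a region. Replicate 2 gave 7 (lsm-3, rsp-1, rsp-2, rsp-3, rsp-6, snr-2 and snr-4), where 2.62% had one. The genes in both were lsm-3 and snr-4, where 1.42% of all genes were in both. The rsp- genes numbered 0 in the first set and 4 in the second.

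Across the 22 members in both lists, replicate signals had a Pearson correlation of 0.34 on the log2 scale and a Spearman correlation of 0.28, given as a description of genes from the same libraries and the same control. Over the 4714 genes in both lists they were 0.60 and 0.41. Ranks were better in replicate 2 for 14 members and in replicate 1 for 8, in some cases at different summits, as at snr-1. No such count over all genes is given, so it is not read as a trait of the members. The cause of the differences between the replicates was not tested, since their depth is unknown.

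**Figure D3:**
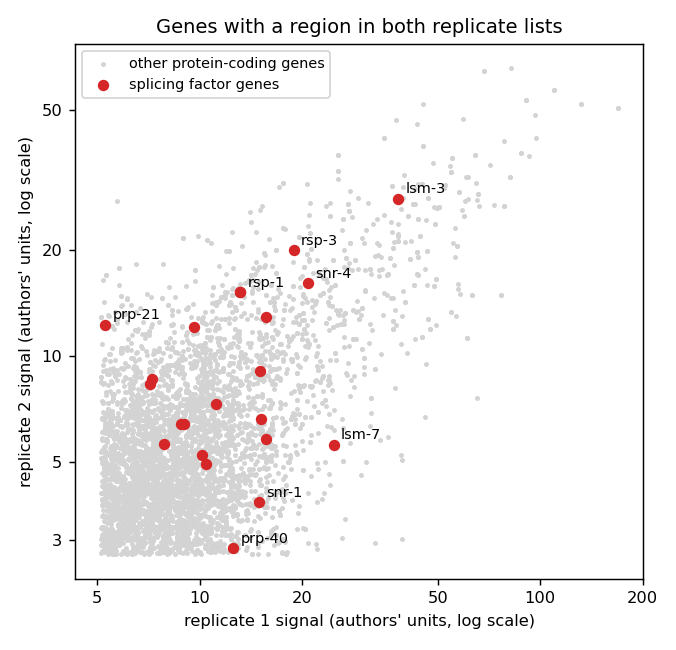
Highest promoter signal in the replicate 1 list against that in the replicate 2 list (authors' units, log axes) for the 4714 protein-coding genes with a region in both, with the 22 splicing factor genes in red. The genes lsm-3, rsp-3 and snr-4 are high in both lists, lsm-7 is at 24.7 and 5.60, and prp-21 is at 5.29 and 12.3.

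By level, the members with a pooled region had a median signal of 14.8, and all genes with one had a median of 11.0. In replicate 1 the medians were 10.4 and 8.28, and in replicate 2 they were 6.62 and 4.83. These are medians over genes that have a region, which leaves out 6 members in the pooled list. Of the 32, 24 stood above the all-gene median. The thresholded list itself had a median of 45.9, and lsm-3 was the member above it.

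**Figure D4:**
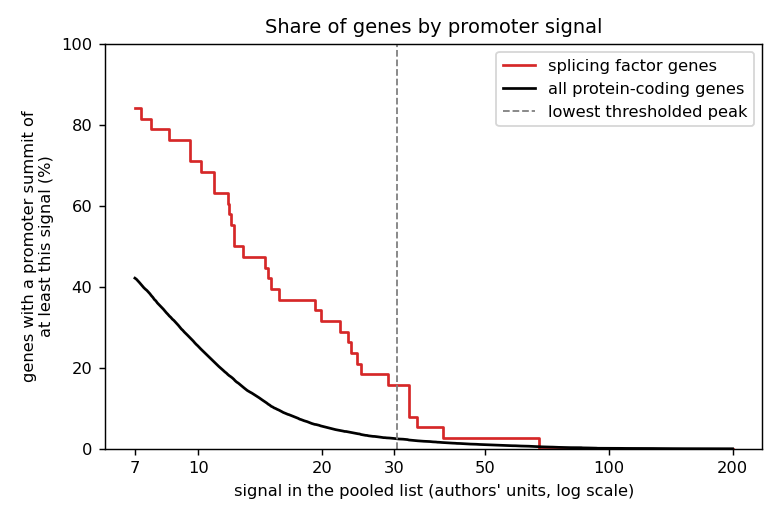
Share of genes (percent) with a promoter summit of at least the pooled signal on the x axis (authors' units, log axis), for the 38 splicing factor genes (red) and all 19973 protein-coding genes (black), with the lowest thresholded signal dashed. The red curve starts at 84.2% and the black one at 42.2%; the red curve ends at 67.6, the value of lsm-3.

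Other housekeeping families show where the splicing factor genes stand. Cytosolic ribosomal protein genes (rpl- and rps- names) had a thresholded peak at 24 of 78 (30.8%), translation factor genes at 6 of 39 (15.4%) and proteasome subunit genes at 4 of 33 (12.1%). Their median pooled signals, over genes with a region, were 24.9, 16.97 and 16.4. The splicing factor share of 15.8% lies beside those of the translation factor and proteasome genes and below that of ribosomal protein genes. The differences between families were not tested.

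Other genes of the splicing pathway, taken from lists by role, gave 8 thresholded peaks among 94 (8.51%) and pooled regions at 66 (70.2%). Over all protein-coding genes the shares were 2.49% and 42.2%. Spliceosomal helicases and Prp19 complex genes had 3 of 23. These were plrg-1, mog-5, the DEAH helicase that releases mRNA, with 77.3 pooled, 63.0 and 14.9, and syf-2 with 43.1, 17.5 and 23.1. The syf-2 summit was nearer to the 5′ end of K04G7.1. Splicing regulators had 5 of 30. The STAR family regulator asd-2 had 42.2 at a summit inside the noncoding gene T21G5.7. Among the others were grld-1 with 51.6, swp-1 with 45.0 and hrpl-1 with 31.7. The grld-1 summit lay inside the noncoding gene F29C4.9 and was nearer to the cytochrome c oxidase gene cox-6C. The swp-1 summit was nearer to the ribosomal protein gene rpl-23, and the hrpl-1 summit lay at a tRNA gene. Peaks were at 0 of 24 other snRNP and U2 protein genes and 0 of 9 spliced leader and snRNP assembly genes. The exon junction complex genes had 0 of 8. Pooled regions were at 16, 6 and 5 of these, in the same order. With 2.49% of all genes having a peak, groups this small can hold none, so the zeros are not read as a trait.

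GC content was higher at the stronger member summits. Within 50 bp of the summit it was 40% ± 10.6 (SD over 32 members), and in the windows 200 bp to either side it was 32.6% ± 4.9. It was 55.4% at rsp-3, against 31.2% beside it, and 51.5% at lsm-7, against 30.7%. The 11 distinct regions among the 1500 highest had a median of 47.5%, and 10 of them were richer at the summit than beside it, prp-18 being the exception. The other 19 had a median of 33.7% and 11 were richer at the summit. Over the 7330 distinct regions of all genes, 52.7% were richer at the summit, and the means were 36.1% at the summit and 34.5% beside it. Spearman's rho of signal and GC content was 0.56 over the 30 distinct member regions and 0.27 over those of all genes, both as descriptions. Nuclear thresholded summits as a whole had 48.8%. GC content can change recovery and amplification in ChIP-seq, and its part in these values was not tested.

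**Figure D5:**
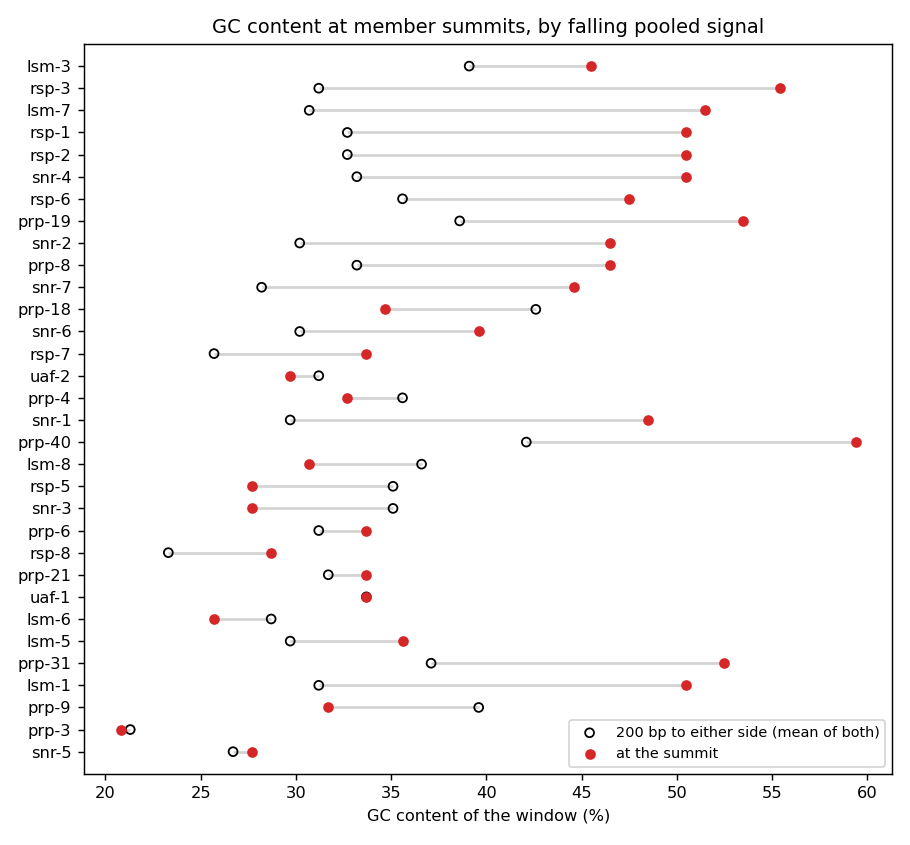
GC content (percent) within 50 bp of the summit (red) and the mean of equal windows 200 bp to either side (open) for the 32 members with a pooled region, ordered from the highest pooled signal at the top. Of the 12 members at the top, prp-18 is the single one with a lower value at its summit.

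Short words were searched at the members' summits. Each was looked for within 50 bp of the summit on both strands. Its share is set beside all 663 nuclear thresholded summits, the 29974 nuclear pooled summits, from which the 30 distinct member regions come, and a stretch of the same length just upstream of the first 5′ end of each of the 19973 genes. CGCGCA, a word chosen from earlier results of these data, was in 3 of the 30, those of rsp-1 and rsp-2, snr-4 and snr-2 (10%). It was in 14.2% of thresholded summits, 2.21% of pooled summits and 1.84% of promoters. The same 3 regions held TATAAA, which was in 3.92% of thresholded summits, 12.4% of pooled summits and 19.5% of promoters. CTGCGTC was at rsp-6, prp-18 and snr-1, in 8.45% of thresholded summits, 1.58% of pooled summits and 1.45% of promoters. GCGTC, searched after the sequences were seen, was in 10 of the 30 (33.3%), in 25.2% of thresholded summits, 6.85% of pooled summits and 5.92% of promoters. TTTCAG, the form of a splice acceptor, was in 5 of 30 (16.7%), in 4.37% of thresholded summits, 19.5% of pooled summits and 25.7% of promoters. CACGTG was in none of the 30, in 2.11% of thresholded summits, 1.44% of pooled summits and 2.47% of promoters. The members' shares of TATAAA and TTTCAG were close to those of the pooled list, with few regions behind each. Of the 5 thresholded member summits, GCGTC was in 3, CGCGCA was in 2 and TATAAA was in 2. Their shares over all thresholded summits were 25.2%, 14.2% and 3.92%. CTGCGTC was in 0 of the 5, TTTCAG was in 0 and CACGTG was in 0, where 8.45%, 4.37% and 2.11% of all thresholded summits held them. At such shares 5 summits can hold none, and with so few summits none of these counts is read as a trait of the members.

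The 7 printed windows and those of prp-19 and prp-8 were compared with each other, and 3 of the 36 pairs shared a run of 10 bases. The run TGCGTCAGCA was common to lsm-7 and to rsp-1. It was in 8 of the 663 thresholded summits (1.21%), those of lsm-7 and rsp-1 among them, 0.043% of pooled summits and 0.045% of promoters. CAAACACTCT, common to lsm-7 and prp-8, was in 2 thresholded summits, 0.033% of pooled summits and 0.02% of promoters. ACGCTCCACT, common to prp-19 and prp-8, was in 0, 0.023% and 0.02% in the same order. No count of pairs over other windows is given, so the shared runs are not read as a trait of the members. None of the 32 members' summit windows held a word of 32 bases found elsewhere in the genome.

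By chromosome, 6 members lie on I, 10 on II, 9 on III, 8 on IV and 5 on V. These are 15.8%, 26.3%, 23.7%, 21.1% and 13.2% of the members. Of all protein-coding genes, 14.4%, 17.3%, 13.2%, 16.4% and 25% lie on these chromosomes. No member lies on the X chromosome, which holds 13.7% of protein-coding genes.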

How the data were processed

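ChIP-seq libraries of 1 group were deposited as region lists in narrowPeak form on ce11 and ce10, per the labels. Per the deposited notes, both technical libraries of each replicate went into 1 alignment, called against the same control, and the thresholded list derives from the replicate and pooled lists by the irreproducible discovery rate. Names for aligner, caller and threshold were not given in the sources used here. Both the signal value and the −log10 q-value of each region are the authors', as deposited. These −log10 q-values only describe the lists and are not reported. The ce10 lists were not used, because genome and annotation are ce11 (Ensembl release 115 and the RefSeq sequence).

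Summits were column 2 plus column 10, assigned to genes with Python 3.11.15, pandas 2.3.3, NumPy 2.4.6 and SciPy 1.17.1, and plotted with matplotlib 3.10.9. The assignment was checked on planted regions. No test was made: 1 group allows no comparison between conditions, and genes are not replicates. Each count stands beside the share over all genes instead. Named were members with a thresholded peak, the next 10 by pooled signal, the highest of each family, members among the 689 highest of a replicate, members with no region, and listed splicing genes with a thresholded peak. The values of 1 listed splicing gene are not reported here. Other members are given so that all are accounted for. Members, lists and CGCGCA were chosen with earlier results of these data known, and GCGTC, the shared runs and the same-strand clusters after the data were seen. Alternatives changed the window, the gene assignment, the threshold and the replicates.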

Additional observations from a re-analysis of the deposited data

How the results depend on the processing

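The count of 6 members with a thresholded peak changed by over 1.5 times under 3 alternatives. When a peak counted for its nearest 5′ end alone it was 2 (rsp-2 and snr-4), where 1.75% of all genes had a peak. Among the 344 strongest peaks it was 1 (lsm-3), where 1.16% had one. With 1 replicate list taken alone to its 689 highest regions it ranged from 3 to 7, where 2.33% and 2.62% of all genes had one. It was 4 with a window of 500 bp upstream and 100 bp downstream, which drops lsm-3 and rsp-1, where 1.93% had one. It stayed at 6 with 2000 bp upstream (3.41% of all genes) and with any overlap in place of the summit (2.77%). With the farthest upstream 5′ end alone it was also 6 (2.31%). The count of 32 members with a pooled region was 21 by the nearest 5′ end, where 36.3% of all genes had one, and 27 to 28 in the list of 1 replicate. The median signal of 14.8 was 11.9 by the nearest 5′ end, against 10.8 over all genes, and ranged from 6.62 to 10.4 in the lists of single replicates, which are on other scales. The count of 22 members in both replicate lists ranged from 16, with summits within 100 bp of each other (9.86% of all genes), to 27, with 2000 bp upstream (38.3%). The lists hold no counts, so depth sets no interval here. No paired analysis was possible because all libraries belong to 1 group.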
